A study of Mus musculus with 4 samples.

Results

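The FGF receptors are a family of cell-surface proteins encoded in the mouse by Fgfr1, Fgfr2, Fgfr3, Fgfr4 and Fgfrl1. These 5 genes were taken by name, without use of their values, from 23946 genes quantified in calvarial bone, and all 5 were present. RNA-seq had been performed on frontal and parietal bone from mice 21 days after birth, either wild-type or Twist1+/-, with a C57BL/6J strain background in every group and no treatment named. Twist1+/- mice carry 1 mutant copy of Twist1, a basic helix-loop-helix transcription factor, in all tissues, and were bought from a commercial supplier. The 4 groups were wild-type frontal bone, wild-type parietal bone, Twist1+/- frontal bone and Twist1+/- parietal bone, each with 1 library here, made from RNA of bones of 12 mice per strain. The comparisons ask how loss of 1 Twist1 copy and how the bone of origin, neural crest for the frontal and mesoderm for the parietal, go with the transcript levels. With 1 library per group there is no replicate check and no test was run, so every difference below compares libraries, not conditions.

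FGF receptors 1 to 4 have an extracellular part with immunoglobulin-like domains that binds FGFs together with heparan sulfate, 1 membrane-spanning segment and an intracellular tyrosine kinase. Ligand binding brings receptors together, the kinase phosphorylates the adaptor FRS2, and the RAS-ERK cascade follows, which in turn induces inhibitors such as the Sprouty proteins. FGFRL1 binds FGFs but has no tyrosine kinase domain. In the skull vault FGFR1 and FGFR2 act in proliferation and differentiation of osteogenic cells, and activating mutations of FGFR1, FGFR2 or FGFR3, like loss of 1 TWIST1 copy, cause craniosynostosis, the early fusion of skull sutures. FGFR3 is best known as a brake on cartilage growth.

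The receptors differ in gene structure as well as in level. Positions are on mouse build mm9 in the GENCODE M1 annotation, which is not the annotation used by the authors. Fgfr1 lay on chromosome 8 from 26629264 to 26686186 on the plus strand, Fgfr2 on chromosome 7 from 137307223 to 137409705 on the minus strand, and Fgfr4 on chromosome 13 from 55254001 to 55270120 on the plus strand. Fgfr3 and Fgfrl1 both lay on the plus strand of chromosome 5, Fgfr3 from 34064373 to 34079712 and Fgfrl1 from 109123248 to 109135969. The longest coding transcript had 18 exons in each of the 4 kinase receptors and 7 in Fgfrl1. The exons of Fgfr1 shared 125 bases with a lincRNA gene on the opposite strand, Gm16159. The library kit marks strand, but the strand setting of the counting is not given in the sources used here. Stretches of 75 bases, the length of a read, from each receptor's longest coding transcript were searched in the protein-coding transcripts of other genes. None occurred there in the same orientation, and non-coding transcripts and the opposite strand were not searched.

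In Fgfr1, Fgfr2 and Fgfr3 the second part of the immunoglobulin-like domain nearest the membrane comes from either of a pair of exons, IIIb or IIIc, which sets which FGFs are bound. Epithelial cells mostly use IIIb and mesenchymal cells, osteoblasts among them, mostly use IIIc. A gene-level value adds both forms together, so the values below do not tell IIIb from IIIc.

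Twist1 and related factors bind the E-box, CANNTG. For the 2 receptors of at least 1 FPKM whose levels spanned the widest range, Fgfr2 and Fgfrl1, the window from 250 bases before to 50 bases after the start site is shown from RefSeq, on build GRCm38.p6, with CANNTG in capitals. RefSeq windows were matched for 4 of the 5 receptors, all but Fgfr1.
Fgfr2, chr7:130266759-130267058, minus strand: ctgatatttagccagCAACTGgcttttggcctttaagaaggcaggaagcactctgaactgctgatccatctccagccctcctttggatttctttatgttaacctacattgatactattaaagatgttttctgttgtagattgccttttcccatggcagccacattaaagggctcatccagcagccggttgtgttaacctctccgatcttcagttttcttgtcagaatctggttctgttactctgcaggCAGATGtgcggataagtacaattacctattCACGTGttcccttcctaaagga
Fgfrl1, chr5:108693979-108694278, plus strand: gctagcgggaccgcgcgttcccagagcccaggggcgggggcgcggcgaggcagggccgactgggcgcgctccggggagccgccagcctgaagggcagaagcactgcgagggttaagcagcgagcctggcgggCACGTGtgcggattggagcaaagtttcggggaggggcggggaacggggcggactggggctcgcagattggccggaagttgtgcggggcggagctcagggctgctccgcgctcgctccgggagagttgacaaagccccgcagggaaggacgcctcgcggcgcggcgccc

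The Fgfr2 window held 3 matches, starting at -235, -2 and 28 bases from the start site. The Fgfrl1 window held 1, at -118. The Fgfr4 window held 2, and of the 2 Fgfr3 windows the first held 1 and the second 0. CANNTG reads the same on both strands and is frequent. Of 32851 windows of this length, 72.3% held at least 1 match and 17.6% held at least 3, and a match is only a description of the letters.

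The unit throughout is FPKM, a fragment count corrected for transcript length and for the reads mapped in a library, so that levels can be compared between genes. Labelled tissue and genotype were checked first. Osteoblast markers were abundant in every library, with Spp1 (osteopontin) between 4107 and 12239 FPKM, but the collagen genes Col1a1 and Col1a2 were listed at 0 in 3 of 4 libraries (wild-type parietal bone had 5595 and 6326 FPKM), so a 0 in these files can be a failed estimate. Twist1 stood at 59.0 FPKM in wild-type and at 30.4 FPKM in Twist1+/- frontal bone (log2 ratio -0.96). The parietal pair had 52.5 FPKM in wild type and 50.7 FPKM in the library labelled Twist1+/- (-0.05), so the Twist1 value as deposited goes against the label of this last library, which is called "labelled Twist1+/-" below. When the ratios of genes of like GC content were subtracted, as explained further on, the log2 ratio of Twist1 was -0.60 in the parietal and -0.99 in the frontal pair. The parietal bones are described as including pericranium and dura mater, which were removed for the cultured osteoblasts. Libraries also differed in tissue content. The summed FPKM of 12 skeletal muscle markers was 130 in wild-type frontal bone and 1581 to 4302 in the others. The sum of 13 neuron and glia markers was 70.7 in wild-type parietal bone and 355 to 396 in the others. Without Mbp, a myelin gene and the most abundant of them, the sum was 288 in wild-type frontal, 179 in Twist1+/- frontal, 36 in wild-type parietal and 84.7 in labelled Twist1+/- parietal bone. The sum of 11 epithelium markers was 8.03 to 15.7 in the wild-type libraries and 54.1 to 61.3 in those labelled Twist1+/-. Values below follow the order wild-type frontal, Twist1+/- frontal, wild-type parietal and labelled Twist1+/- parietal. In bulk RNA, fewer cells of a type and less RNA per cell cannot be told apart.

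The order of the receptors by level was Fgfr1, Fgfr2, Fgfr3, Fgfrl1, Fgfr4 in each of the 4 libraries. Fgfr1 was at 62.1 FPKM in wild-type and 54.7 FPKM in Twist1+/- frontal bone, and at 63.7 FPKM and 77.6 FPKM in the corresponding parietal libraries. It was thus the most abundant receptor everywhere, lowest in Twist1+/- frontal and highest in the parietal library labelled Twist1+/-, a 1.42-fold span. Between 94.6% and 96.0% of all genes had lower values than Fgfr1, depending on the library.

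Fgfr2 was at 29.2 FPKM in wild-type and 33.4 FPKM in Twist1+/- frontal bone, and at 53.6 FPKM and 47.3 FPKM in the corresponding parietal libraries. Both parietal libraries were above both frontal libraries, as they were for Fgfr1, Fgfr3 and Fgfrl1, and the values of Fgfr2 spanned 1.84-fold. Fgfr3 was at 16.3 FPKM in wild-type and 15.1 FPKM in Twist1+/- frontal bone, and at 21.3 FPKM and 16.7 FPKM in the corresponding parietal libraries. Its highest value was that of wild-type parietal bone, the other 3 libraries lay close together, and the span was 1.41-fold.

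Fgfrl1, the receptor without a kinase, was at 6.99 FPKM in wild-type and 8.66 FPKM in Twist1+/- frontal bone, and at 8.92 FPKM and 13.3 FPKM in the corresponding parietal libraries. The last of these stood above the other 3 libraries, and the span of 1.90-fold was the widest among the receptors at or above 1 FPKM. Fgfr4 was at 0.152 FPKM in wild-type and 0.307 FPKM in Twist1+/- frontal bone, and at 0.377 FPKM and 0.161 FPKM in the corresponding parietal libraries. Fgfr4 was thus below 1 FPKM in every library, under the floor used for comparisons, and its 2.48-fold span is given as a value only. Only 31.4% to 38.6% of all genes had lower values than Fgfr4, many of them listed at 0.

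**Figure D1:**
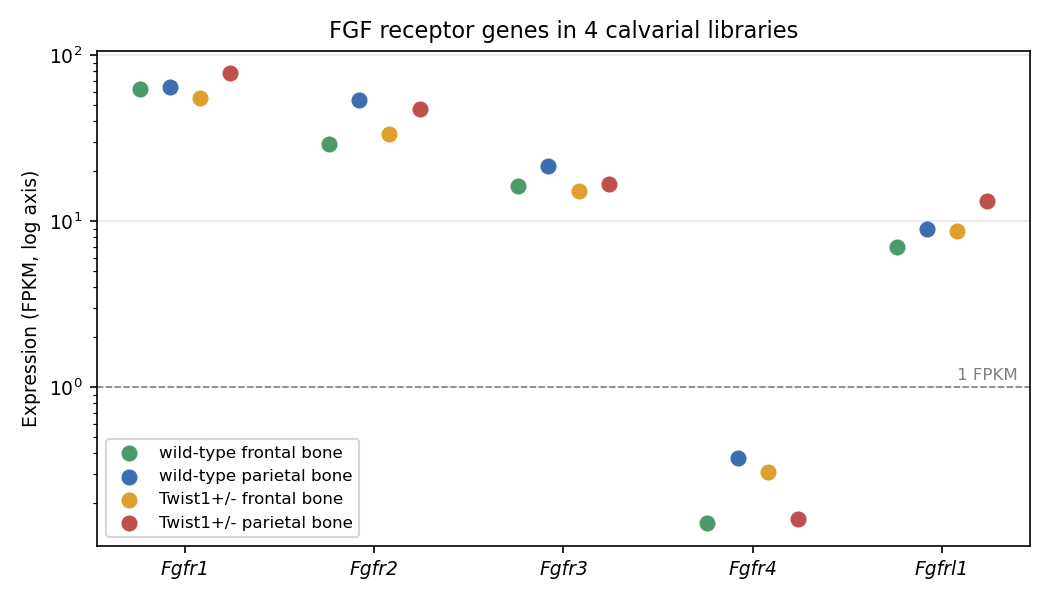
Expression of the 5 FGF receptor genes in FPKM on a log axis, 1 point for each of the 4 libraries, with a dashed line at 1 FPKM. Fgfr1 was the highest in each library, from 54.7 to 77.6 FPKM, and Fgfr4 lay between 0.152 and 0.377 FPKM.

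Fgfr1 ranked 2 in 3 libraries and 3 in wild-type parietal bone among 59 genes listed with the receptor tyrosine kinases. The list counts all 5 members, Fgfrl1 without a kinase among them. Fgfr2 ranked from 4 to 5, Fgfr3 from 9 to 11, Fgfrl1 from 15 to 24 and Fgfr4 from 45 to 56. By the mean of the 4 libraries, Fgfr1 at 64.5 FPKM and Fgfr2 at 40.9 FPKM came after Csf1r, the CSF1 receptor of macrophages and the osteoclast lineage, at 93.8 FPKM, with the Wnt co-receptor Ryk between them at 50.4 FPKM. Csf1r and Ryk were chosen after their values were seen, as the neighbours in this order.

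The makeup of the receptor pool was read within each library, where a scale factor common to all genes of a library has no part, although the GC trend given further on can still move it. The 5 values summed to 115 FPKM in wild-type and 112 FPKM in Twist1+/- frontal bone, and to 148 FPKM and 155 FPKM in the corresponding parietal libraries. Both parietal sums were above both frontal sums. Fgfr1 made up 54.1% of the sum in wild-type and 48.8% in Twist1+/- frontal bone, and 43.0% and 50.0% in the corresponding parietal libraries. Fgfr2 made up 25.4%, 29.8%, 36.3% and 30.5% in the same order. Wild-type parietal bone thus had the lowest share of Fgfr1 and the highest share of Fgfr2. The Fgfr3 share lay between 10.8% and 14.4%, the Fgfrl1 share between 6.03% and 8.56%, and the Fgfr4 share between 0.104% and 0.273%.

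Fgfr2 was expressed at 0.470 of the Fgfr1 level in wild-type frontal and 0.843 in wild-type parietal bone, a 1.79-fold difference. In the Twist1+/- pair the ratio was 0.611 in frontal bone and 0.610 in the parietal library. The bones thus differed in this ratio in the wild-type pair and by less than 1% in the pair labelled Twist1+/-. The Fgfr3 to Fgfr1 ratio was 0.263, 0.276, 0.335 and 0.216 in the order given above. The Fgfrl1 to Fgfr1 ratio was 0.113, 0.158, 0.140 and 0.171 in this order too.

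**Figure D2:**
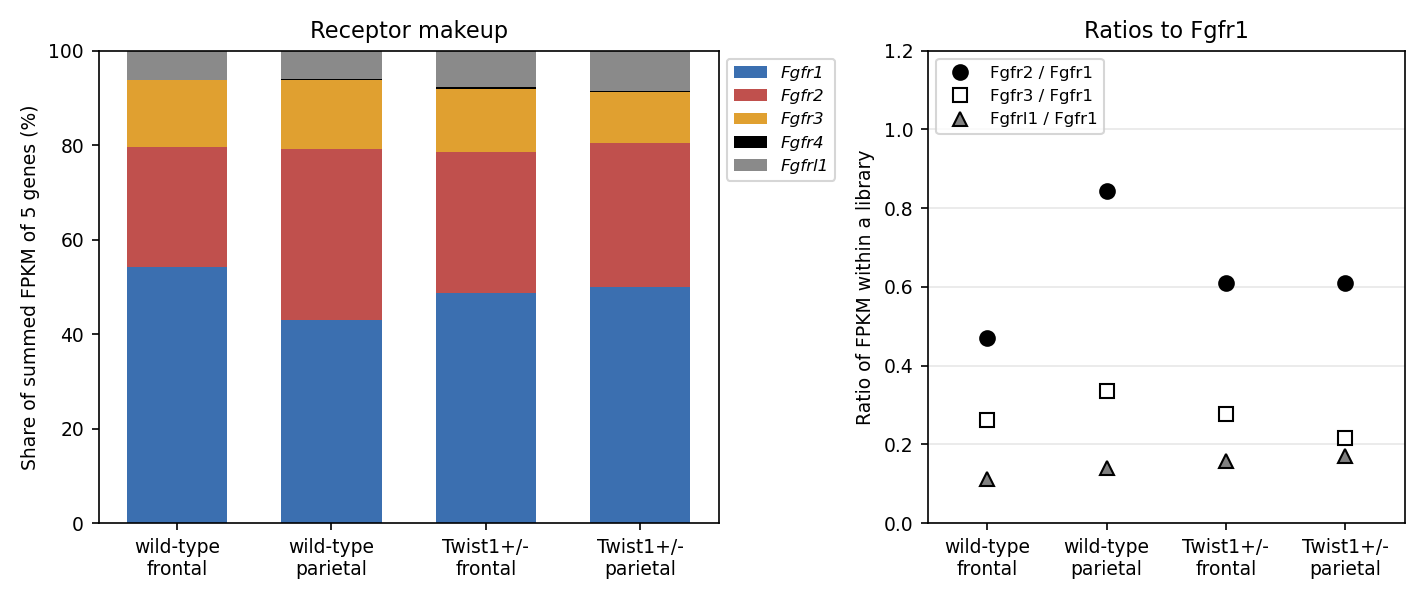
Left, the share of each receptor in the summed FPKM of the 5 genes for each library, in percent. Right, the FPKM of Fgfr2, Fgfr3 and Fgfrl1 divided by that of Fgfr1 in the same library. The Fgfr2 to Fgfr1 ratio was 0.470 in frontal and 0.843 in parietal bone of wild type, and 0.611 and 0.610 in the libraries labelled Twist1+/-.

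For the comparisons between libraries a gene was counted as different past a 3-fold ratio of FPKM, provided that either library reached 1 FPKM, which left Fgfr4 out. In parietal bone, comparing the library labelled Twist1+/- with wild type, 0 of 4 receptors were past 3-fold and 0 past 2-fold. Of 13914 genes tested, 8.19% were past 3-fold, 5.25% higher and 2.94% lower in the library labelled Twist1+/-, and 20.2% were past 2-fold. Fgfrl1 was 1.49-fold higher in the parietal library labelled Twist1+/- (log2 ratio 0.57) and Fgfr1 was 1.22-fold higher (0.28). Fgfr2 was 1.13-fold lower (log2 ratio -0.18) and Fgfr3 was 1.27-fold lower (-0.35). All 4 lay inside the range from -0.96 to 1.03 that held the middle 80% of log2 ratios, and 45.5% of genes tested differed at least as much as Fgfrl1. Fgfr4 had a log2 ratio of -1.22 at values below 1 FPKM.

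These parietal ratios went with the GC content of transcripts. With genes split into 20 equal groups by GC content, the lowest group had a median log2 ratio of -0.61 and the highest one of 0.70 (Spearman's rho 0.55 across 12554 genes, which are not independent replicates). Receptor transcripts were at 53.8% to 59.6% GC, above the median of 50.9% over genes with a value. Once the median ratio of genes of like GC content was subtracted, the log2 ratios were 0.02 for Fgfr1, -0.33 for Fgfr2, -0.70 for Fgfr3 and 0.02 for Fgfrl1. Fgfr1 and Fgfrl1 thus had ratios like those of other genes of their GC content, while Fgfr3 moved further below zero. Scaled to the same Gapdh value instead, the log2 ratios of Fgfr2 and Fgfr3 were 0.21 and 0.04. The 7 of 9 osteoblast markers above 0 in all libraries had log2 ratios from -0.86 (Spp1) to 1.13 (Pth1r) with a median of 0.61, a range that held all 4 receptors. Col1a1 and Col1a2 were listed at 0 in the parietal library labelled Twist1+/-, which can be a failed estimate. With them included, the median difference in log2(FPKM + 1) over all 9 markers was -0.04. Of the epithelium markers 9 of 10 tested, and of the neuron and glia markers 6 of 13, were past 3-fold higher in the parietal library labelled Twist1+/-, with no epithelium or neuron and glia marker at 0 in any library. Their part in the receptor values was not tested.

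In frontal bone, comparing Twist1+/- with wild type, 0 of 4 receptors were past 3-fold and 0 past 2-fold. Of 14341 genes tested, 3.89% were past 3-fold, 3.17% higher and 0.725% lower in Twist1+/-, and 7.18% were past 2-fold. Fgfrl1 was 1.24-fold higher in Twist1+/- frontal bone (log2 ratio 0.31) and Fgfr2 was 1.15-fold higher (0.20). Fgfr1 was 1.14-fold lower (log2 ratio -0.18) and Fgfr3 was 1.08-fold lower (-0.11). These receptors lay within the middle 80% of log2 ratios, from -0.47 to 0.46, and kept their direction under each scaling and GC setting tried. A pseudocount cannot change a direction. Of the epithelium markers 7 of 8 tested, and all 12 muscle markers, were past 3-fold higher in Twist1+/- frontal bone, and their part in the receptor values was not tested.

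With the values as deposited, Fgfrl1 was higher and Fgfr3 lower in the library labelled Twist1+/- of each bone. Fgfr1 and Fgfr2 had opposite directions in the 2 bones, and opposite directions were found in 46.0% of 12291 genes at or above 1 FPKM in all 4 libraries.

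In the wild-type pair, comparing parietal with frontal bone, 0 of 4 receptors were past 3-fold and 0 past 2-fold. Of 14214 genes tested, 13.3% were past 3-fold, 4.07% higher and 9.20% lower in parietal bone, and 26.9% were past 2-fold. Fgfr2 was 1.84-fold higher in wild-type parietal bone (log2 ratio 0.88), the largest ratio of a tested receptor in the 4 comparisons. Fgfr3 was 1.31-fold higher (0.39), Fgfrl1 1.28-fold higher (0.35) and Fgfr1 1.02-fold higher (0.04). At least as large a difference as that of Fgfr2 was found in 31.5% of genes tested. The 7 osteoblast markers had log2 ratios from -0.61 (Sp7) to 1.65 (Ibsp) with a median of 0.02, and Ibsp and Spp1 (1.58) were above Fgfr2. Over all 9 markers 3 were past 3-fold higher, namely Ibsp, and Col1a1 and Col1a2, which were listed at 0 in wild-type frontal bone. With Col1a1 and Col1a2 included, the median difference in log2(FPKM + 1) was 0.55. For 5 osteocyte markers this median was 1.11 with 0 past 3-fold. When both libraries were scaled to the same Gapdh value, Fgfr2 remained higher at a log2 ratio of 0.43. Fgfr1, Fgfr3 and Fgfrl1 then came to -0.41, -0.06 and -0.09. With the GC trend subtracted instead, the log2 ratios were larger than as deposited. They were 1.01 for Fgfr2, which is past 2-fold, 0.58 for Fgfr3, 0.50 for Fgfrl1 and 0.18 for Fgfr1. Muscle markers were past 3-fold higher in wild-type parietal bone in 11 of 11 tested, and neuron and glia markers were past 3-fold lower in 12 of 13. Their part in the receptor values was not tested.

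In the pair labelled Twist1+/-, comparing parietal with frontal bone, 0 of 4 receptors were past 3-fold and 0 past 2-fold. Of 14305 genes tested, 4.09% were past 3-fold, 0.846% higher and 3.24% lower in the parietal library, and 11.9% were past 2-fold. Fgfrl1 was 1.53-fold higher in the parietal library labelled Twist1+/- (log2 ratio 0.62), and Fgfr1 and Fgfr2 were both 1.42-fold higher (0.50 each). Fgfr3 was 1.11-fold higher (0.15). At least as large a difference as that of Fgfrl1 was found in 27.9% of genes tested. Log2 ratios rose with GC content here too, from a median of -0.51 in the lowest to 0.42 in the highest of 20 groups, and with this trend subtracted they were 0.34 for Fgfr1, 0.36 for Fgfr2, 0.29 for Fgfrl1 and -0.03 for Fgfr3. The 7 osteoblast markers had log2 ratios from 0.36 (Runx2) to 1.07 (Pth1r) in this pair, with a median of 0.55. The 4 tested receptors were thus higher in the parietal library in both pairs with the values as deposited, a direction shared by 33.2% of the 12291 genes at or above 1 FPKM in all 4 libraries. The comparisons share libraries and are not independent of each other.

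**Figure D3:**
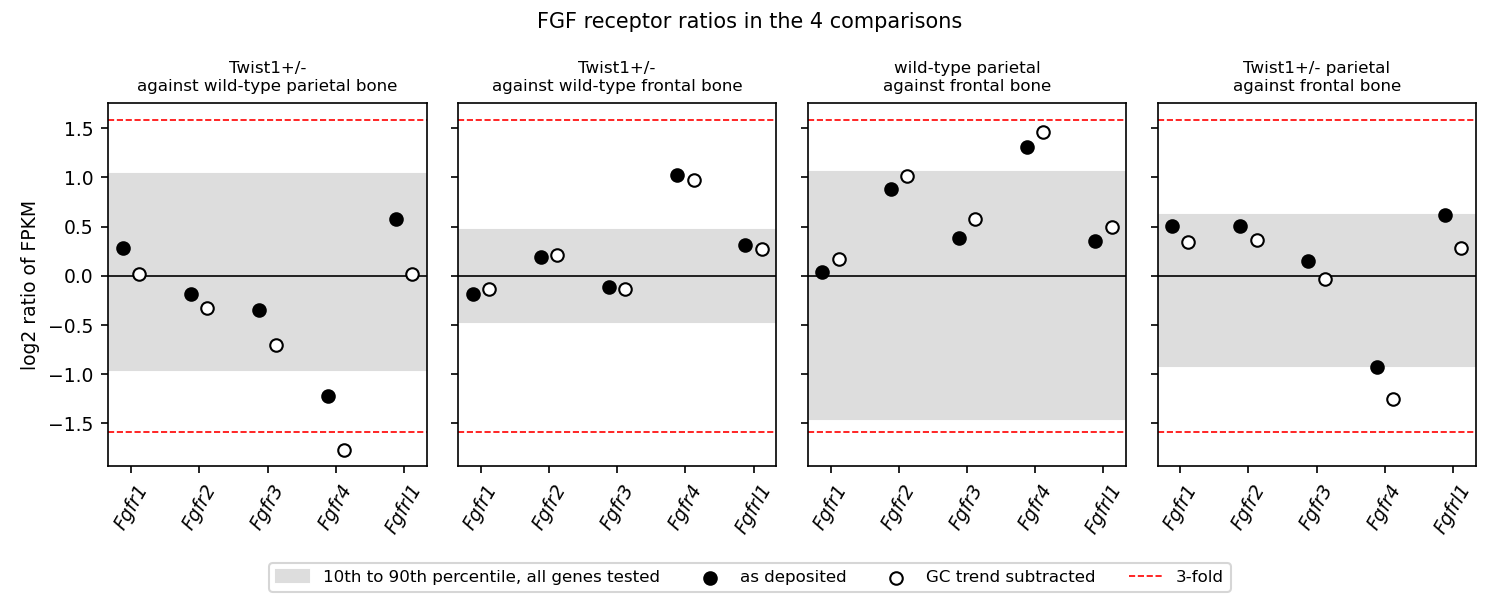
Log2 ratios of FPKM of the 5 receptor genes in each of the 4 comparisons, as deposited (filled) and after subtraction of the GC trend (open). Grey bands hold the 10th to 90th percentile of all genes tested, red dashed lines mark 3-fold, and Fgfr1, Fgfr2, Fgfr3 and Fgfrl1 lie inside every band while Fgfr4, below 1 FPKM, lies outside or at the edge.

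The genes around the receptors were counted from 9 lists holding 97 genes in the files. Past 3-fold were 3 of 79 tested (3.8%) by genotype in the parietal pair, and 2 of 80 (2.50%) in the frontal pair. Comparing the bones, 7 of 79 (8.86%) were past 3-fold in the wild-type pair and 3 of 79 (3.8%) in the pair labelled Twist1+/-. Each share was below the share of all genes tested in the same comparison.

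Among 15 paracrine FGFs, the locally acting ligands, 5 reached 1 FPKM in any library, and Fgfr1, Fgfr2 and Fgfr3 exceeded all of them in every library. Fgf1, which binds every FGF receptor, was at 6.07 FPKM in wild-type and 6.10 FPKM in Twist1+/- frontal bone, and at 9.26 FPKM and 4.88 FPKM in the corresponding parietal libraries. Fgf7, which binds the IIIb form of FGFR2, was at 1.04, 1.29, 3.23 and 2.07 FPKM in the same order and was the 1 paracrine ligand past 3-fold in any comparison, higher in wild-type parietal than in wild-type frontal bone. Fgf18, an osteogenic ligand that binds FGFR3 and the IIIc forms, was at 1.02, 1.17, 1.48 and 2.85 FPKM, highest in the parietal library labelled Twist1+/-. Fgf2 was between 0.603 and 1.77 FPKM and Fgf9 between 1.18 and 2.04 FPKM. Of the 4 intracellular FGF homologous factors, which do not signal through the receptors as secreted ligands do, Fgf12 was past 3-fold lower in parietal than frontal bone in both pairs, at 5.70, 6.15, 0.747 and 1.59 FPKM.

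Of the 3 endocrine FGFs, Fgf23, the phosphate-regulating hormone made by osteoblasts and osteocytes, was at 0.525, 1.0, 20.9 and 0.202 FPKM in the same order, high in wild-type parietal bone alone. Its co-receptor for FGFR1, Kl (klotho), was at 0.723, 0.277, 0.129 and 0.070 FPKM, and Klb was at or below 0.0617 FPKM. The wild-type parietal library, with the highest Fgf23, thus had Kl at 0.129 FPKM and Fgfr1 at 63.7 FPKM.

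Of 16 heparan sulfate carriers and FGF-binding proteins, 1 was past 3-fold by genotype in each bone, 3 were between the bones in the wild-type pair and 0 in the pair labelled Twist1+/-. Sdc1 (syndecan-1) was at 18.9, 24.9, 64.0 and 41.1 FPKM in the order given above, past 3-fold higher in wild-type parietal than frontal bone. Like Fgfr1, Fgfr2, Fgfr3 and Fgfrl1, it was higher in both parietal libraries than in both frontal libraries. Gpc1 (glypican-1) was the highest of this list, from 96.5 to 172 FPKM. Flrt1, a membrane protein that binds FGF receptors, was at 2.23, 5.30, 0.660 and 3.32 FPKM, past 3-fold higher in the parietal library labelled Twist1+/- than in wild-type parietal bone. Fgfbp1, which frees FGFs from heparan sulfate, was at 2.31, 0.578, 0.105 and 0.788 FPKM and past 3-fold lower in Twist1+/- than in wild-type frontal bone. Of 12 heparan sulfate enzymes, 0 were past 3-fold by genotype in either bone, with a median difference in log2(FPKM + 1) of -0.70 in the parietal and -0.12 in the frontal comparison. Over all genes tested the median of the same difference was -0.05 and -0.03. The GC trend of the parietal ratios given above was not subtracted for this list, and its part in the enzyme median was not tested. Hs3st1, a heparan sulfate sulfotransferase, was at 9.80, 8.11, 2.78 and 6.36 FPKM and was the 1 enzyme past 3-fold in any comparison, lower in wild-type parietal than frontal bone. Of the heparan sulfate polymerases, Ext2 was at 29.2, 28.9, 34.0 and 34.9 FPKM and Ext1 was at 20.9, 18.0, 50.0 and 29.8 FPKM.

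Of 24 adaptors and kinases downstream of the receptors, 0 were past 3-fold by genotype and 1 by bone. The latter was Cbl, a ubiquitin ligase that turns receptors over, at 8.10 FPKM in Twist1+/- frontal and 2.06 FPKM in the parietal library labelled Twist1+/-. Frs2, the docking protein of FGFR kinases, was at 10.4, 9.62, 14.5 and 5.58 FPKM and was chosen after its values were seen. Of 13 feedback and target genes tested, 0 were past 3-fold in any of the 4 comparisons, with a median difference in log2(FPKM + 1) of 0.03 by genotype in parietal and -0.08 in frontal bone. Dusp6, the ERK phosphatase induced by ERK, was at 20.4, 20.8, 37.9 and 31.5 FPKM, and Spry1 was at 8.77, 10.9, 17.1 and 19.5 FPKM. Both were higher in both parietal than in both frontal libraries, as were Fgfr1, Fgfr2, Fgfr3 and Fgfrl1. Spry2 did not share this order, at 8.76, 8.84, 6.42 and 11.3 FPKM. Spred1, an inhibitor of the RAS-ERK cascade, was at 19.7, 20.5, 26.6 and 18.0 FPKM. The list's median difference between parietal and frontal bone was -0.07 in the wild-type pair and -0.08 in the pair labelled Twist1+/-.

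Among 6 splicing factors of the receptor exons, Esrp1, which promotes the IIIb exon in epithelial cells, was at 0.545 FPKM in wild-type and 2.71 FPKM in Twist1+/- frontal bone, and at 0.0772 FPKM and 1.48 FPKM in the corresponding parietal libraries. It was past 3-fold higher in the libraries labelled Twist1+/- in both bones, and was the 1 gene of the 9 lists to be so. The epithelium markers given above were higher in the same libraries, and their part in the Esrp1 values was not tested. Ptbp1, which represses IIIb use, was at 101, 91.4, 82.6 and 106 FPKM, far above Esrp1 in every library. Which exon the Fgfr1, Fgfr2 and Fgfr3 transcripts held was not analysed here.

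**Figure D4:**
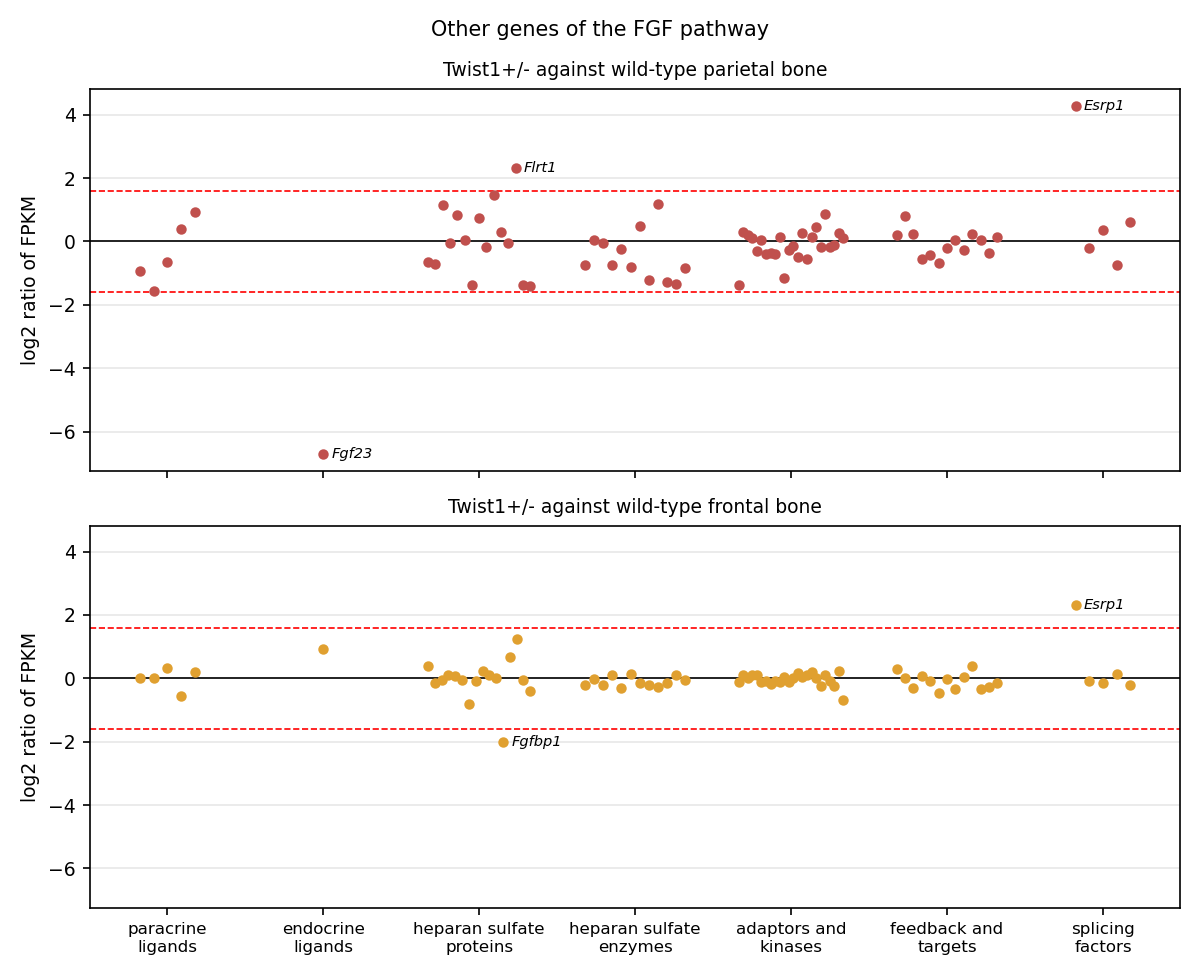
Log2 ratios of FPKM by genotype for 7 of the 9 lists of FGF pathway genes, parietal libraries above and frontal libraries below, 1 point per gene tested and above 0 in both libraries. Dashed lines mark 3-fold, and the genes past it are Fgf23, Flrt1 and Esrp1 in parietal and Fgfbp1 and Esrp1 in frontal bone.

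The genes whose profile over the 4 libraries was most like that of each receptor were found by the distance between log2 FPKM values centred on each gene's mean, among 12290 other genes at or above 1 FPKM in all 4 libraries. The nearest to Fgfr1 were Zic2, Arfgap1 and Gtf2h4, at distances of 0.04 to 0.05. Fgfr2 was nearest to Cox4i1, Gpx4 and Ddt, at 0.02 to 0.03, with Cox4i1 at 479, 542, 880 and 783 FPKM in the order given above. Fgfr3 was nearest to Oser1, Zkscan14 and 4930523C07Rik, and Fgfrl1 to Acbd6, Egfl8 and Pwwp2b. With 4 points a profile has many close matches, and 3315 genes lay within 0.5 of Fgfr1, 2099 of Fgfr2, 4075 of Fgfr3 and 1477 of Fgfrl1. Distances between receptors ran from 0.45 between Fgfr1 and Fgfr3 to 0.75 between Fgfr3 and Fgfrl1. The named neighbours were picked as the nearest of all genes compared, so their smaller distances say nothing about the receptors as a family.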

How the data were processed

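Libraries had been prepared from poly(A) RNA with a stranded kit, and 75 bases were read from 1 end of each fragment. The deposited values are FPKM per gene, which the authors computed with Cuffdiff of Cufflinks 2.2.1 after alignment with STAR 2.4.2a to mm9 with an iGenomes annotation. Samples were grouped by their labels, with 1 library per group, although the methods speak of replicates. Read counts behind FPKM are unknown, so no interval or detection floor was given. The worth of 1 read in FPKM was estimated from the steps of low values. The ratio of Twist1+/- to wild type was 1.27 in frontal bone, with 18.3% of 776 low genes within 0.1 log2 units of it. The same ratio was 0.973 in the parietal pair (17.5% of 513 genes). The ratio of parietal to frontal bone was 0.865 in wild type (9.7% of 608 genes). In the pair labelled Twist1+/- it was 1.26 (11.6% of 597 genes). These estimates cannot all hold, because the others together require a ratio below 1 for this last pair. The worth of a read is therefore not known from them, and no counts were recovered.

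Ratios of FPKM were taken without a pseudocount with Python 3.11.15, pandas 2.3.3 and NumPy 2.4.6, and figures were drawn with matplotlib 3.10.9. A gene was tested in a comparison if its higher value was at least 1 FPKM and counted if past 3-fold, with no statistical test. The alternatives added 1 or 0.1 FPKM to both values, dropped the floor or raised it to 10 FPKM, scaled to a median ratio of 1 or to Gapdh, subtracted the median ratio in 20 groups by transcript GC content (GENCODE M1, found for 80.8% of genes), used a 2-fold threshold, or left Fgfrl1 out of the shares. Scripts were tested on simulated data.

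The receptors and gene lists were chosen with earlier results of these data known. Named were the 5 receptors, the 3 genes most like each in profile, and ligands at or above 1 FPKM in any library. Up to 4 genes per list were also named, first the most abundant of those past 3-fold, then the most abundant. Outside this rule, Csf1r, Ryk and Frs2 were named after their values were seen, and Sp7, Runx2 and Pth1r as ends of marker ranges. Twist1 and Gapdh were named as checks. Sequences of the alternative receptor exons are not reported here.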

Additional observations from a re-analysis of the deposited data

Results flagged for a closer look

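Fgfr1 had opposite directions by genotype in the 2 bones, with log2 ratios of the libraries labelled Twist1+/- to wild type of 0.28 in parietal and -0.18 in frontal bone, a difference of 0.47. Fgfr2 had the opposite pattern, with -0.18 in parietal and 0.20 in frontal bone, a difference of -0.38. The median size of this difference over 12291 genes was 0.48, and neither was tested. Scaled to the same Gapdh value, Fgfr2 was higher in the libraries labelled Twist1+/- in both bones, by 0.21 and 0.09. Fgfr1 then had log2 ratios of 0.68 in parietal and -0.29 in frontal bone, a difference of 0.96. With the GC trend subtracted instead, the Fgfr1 ratios were 0.02 in parietal and -0.14 in frontal bone, a difference of 0.16. Those of Fgfr2 were -0.33 and 0.21, a difference of -0.54. Fgfr4 had log2 ratios of -1.22 in parietal and 1.02 in frontal bone by genotype, a difference of -2.24. Equally, its parietal to frontal log2 ratios were 1.31 in wild type and -0.93 in the pair labelled Twist1+/-, again a difference of -2.24. All Fgfr4 values were below 1 FPKM, and with a pseudocount of 1 FPKM the difference was -0.43. These differences were not tested either.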

How the results depend on the processing

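The count of receptors past the threshold was 0 in all 4 comparisons under each of the 8 alternatives. A pseudocount shrinks a ratio and a higher floor only leaves receptors out, so these settings could not raise the count. Of 100 recomputed receptor ratios, 94 kept their direction. A pseudocount cannot reverse a direction, and all 6 reversals came from scaling to Gapdh or from the GC setting. With both libraries at the same Gapdh value, the log2 ratios by genotype in parietal bone turned to 0.21 for Fgfr2 and 0.0411 for Fgfr3. Those of wild-type parietal to frontal bone turned to -0.41 for Fgfr1, -0.0584 for Fgfr3 and -0.0933 for Fgfrl1. Gapdh itself was at 158 and 170 FPKM in wild-type and Twist1+/- frontal bone, and at 215 and 164 FPKM in the corresponding parietal libraries. The log2 ratios of Gapdh in these 2 comparisons were -0.39 and 0.44. The medians over genes at or above 1 FPKM in both libraries were -0.08 and 0.03. With the GC trend subtracted, Fgfr3 came to -0.0327 in the parietal to frontal ratio of the pair labelled Twist1+/-. The 16 receptor shares stayed within 1.5-fold without Fgfrl1. This was fixed in advance, because Fgfrl1 made up only 6.03% to 8.56% of the sum. Counts over all genes, in the order genotype in parietal, genotype in frontal, bone in wild type and bone in Twist1+/-, were 1139, 558, 1887 and 585. With a pseudocount of 1 FPKM they were 458, 233, 916 and 142, with no floor 3675, 3032, 4525 and 3093, with a floor of 10 FPKM 323, 159, 625 and 125, and at 2-fold 2815, 1030, 3821 and 1702. No paired analysis was possible because the labels give no replicate numbers that pair libraries. Genotype ratios were taken within each bone, and an additive fit over both bones was not run.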

Other observations

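Among 54 other receptor tyrosine kinases, 8 were past 3-fold between wild-type parietal and frontal bone, all lower in parietal bone, out of 41 tested, where 13.3% of all genes tested were past 3-fold and 9.20% lower. Flt1, a receptor for vascular endothelial growth factors, stood at 7.40 FPKM in the frontal and at 2.32 FPKM in the parietal library of the wild-type pair. Kit, the stem cell factor receptor, was at 6.96 and 2.11 FPKM, and Lmtk2 was at 7.59 and 2.44 FPKM. By genotype 3 of 41 were past 3-fold in parietal bone and 0 of 42 in frontal bone, against 8.19% and 3.89% of all genes tested. Epha3, an ephrin receptor, was at 4.52, 2.10, 8.23 and 2.2 FPKM in the order used above, past 3-fold lower in the parietal library labelled Twist1+/- than in wild-type parietal bone.

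Other marker lists also differed between libraries. The summed FPKM in the order used above, frontal and then parietal with wild type first, was 2031, 370, 99.2 and 469 for 7 meninges markers and 357, 256, 147 and 339 for 12 cartilage markers. It was 14826, 16477, 7269 and 9403 for 7 neutrophil markers, 1357, 682, 581 and 680 for 6 erythroid markers, 166, 179, 187 and 226 for 7 endothelium markers, and 17.1, 17.4, 10.3 and 14.8 for 6 satellite cell and myoblast markers. The 5 osteocyte markers summed to 250, 322, 590 and 527 FPKM. Single genes carried some of these sums. Without Ptgds the meninges sum was 56.5, 42.9, 46.4 and 40.2, and without Col11a2 the cartilage sum was 20.7, 20.7, 66.8 and 34.6, with 4 cartilage markers past 3-fold higher and 1, Col11a2, lower in wild-type parietal than frontal bone. Without Cdh15 the satellite cell and myoblast sum was 1.36, 5.27, 4.07 and 2.33. No explanation was tested for these differences.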
